A study of Mus musculus with 8 samples.

Results

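Control IdHPCs and Pcgf1-intact LMPPs are 2 kinds of mouse hematopoietic progenitor, and RNA-seq of both was set side by side here in 4 of the 8 libraries of the series. IdHPCs are a line of bone marrow LSK cells kept multipotent in culture by a human Id3 transgene, and LMPPs were sorted from bone marrow by flow cytometry. The 4 libraries were chosen by a rule. The IdHPC side holds both libraries labelled Pcgf1 fl/fl. The LMPP side holds the libraries with reads on rows 2 to 7 of Pcgf1, the stretch that Cre removes: the library labelled LMPP Pcgf1 fl/fl replicate 1 and the library labelled LMPP Pcgf1 -/- replicate 1. All 8 libraries carry the strain label B6CBAF1/J, bone marrow as their source and a passage of 15 to 18, and all cells were grown on TSt-4 stromal cells with IL-7, SCF and Flt3 ligand. LMPPs of either genotype received 4-OHT for 4 days, which activates the ERT2-Cre of the knockout line, whereas the treatment of the control IdHPCs sequenced here is not given in the sources used here (ethanol, the vehicle, is named for controls of another IdHPC experiment). Replicates 1 and 2 of a label are 2 independent experiments by the study's methods, but the LMPP libraries compared both carry replicate number 1 and may share an experiment, so that any p-value measures only the spread between these libraries. Cell type and table of values cannot be told apart, nor anything else that differed between the making of the tables, since every IdHPC library stands in one table and every LMPP library in the other.

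LMPPs are an early branch of hematopoiesis that has largely lost megakaryocyte and erythroid potential but can still give rise to lymphoid and granulocyte-macrophage cells. B cell fate is set up by the E protein TCF3 (E2A), which acts upstream of EBF1 and PAX5, and by signals of the IL-7 receptor. Id proteins bind E proteins and keep them from DNA, so that cells with excess Id3 halt before B cell commitment. Granulocyte-macrophage fate depends on SPI1, CEBPA and IRF8, and stem and megakaryocyte programs depend on GATA2, TAL1, LMO2 and HLF.

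Pcgf1, a subunit of a Polycomb repressive complex, had 193 and 173 reads on rows 2 to 7 in control IdHPC replicates 1 and 2. It had 84 reads there in the library labelled LMPP Pcgf1 fl/fl replicate 1 and 76 in the library labelled LMPP Pcgf1 -/- replicate 1. Just outside the rule, the libraries labelled LMPP fl/fl replicate 2 and LMPP -/- replicate 2 had 0 and 0 reads on these rows, so that 1 library of each LMPP label goes against its label. Over all its rows, Pcgf1 stood at 8.14 and 7.22 CPM (reads of a gene scaled to a fixed total of listed reads) in the IdHPCs and at 8.04 and 6.66 CPM in the LMPPs. The IdHPC libraries hold 32661966 and 34898845 reads over all rows and the LMPP libraries 13563025 and 14570500, so that 3 reads were worth 0.086 to 0.092 CPM in the former and 0.206 to 0.221 CPM in the latter. Libraries of a pair differed by more than counting noise, with a mean chi-square per gene of 39.17 between the IdHPCs and 5.232 between the LMPPs. Below, 4 values in a row are those of IdHPC replicates 1 and 2, LMPP fl/fl replicate 1 and the library labelled LMPP Pcgf1 -/- replicate 1, in this order, and IdHPCs and LMPPs mean these libraries unless others are named.

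The question was where the 2 progenitor states differ in lineage, receptor, metabolic and feeder genes. A gene is called higher on one side when both of its libraries exceed both libraries of the other side and the means of log2(CPM + 1) differ by 2 or more. By this description, which is no test, 554 of 12767 genes (4.34%) were higher in the IdHPCs and 613 (4.80%) were higher in the LMPPs, 9.14% in all. The counts of called genes in each list below are to be read against these shares. Groups that do not overlap were the usual case, at 77.3% of all genes, with the IdHPCs above for 31.7% and the LMPPs above for 45.5%. The median gene differed by -0.12 (IdHPC minus LMPP, log2 scale), and scaling by TMM factors moved that median to 0.01, so small differences are read against it. Of the called genes, 541 (97.7%) and 606 (98.9%) were also apart when all 4 IdHPC libraries were set against all 4 LMPP libraries. Just inside the limit stood 1110059E24Rik at 2.0007, Nrp2 at 2.0018 and Ctdspl at -2.002. No test was made on CPM values across the tables. On the recovered reads, edgeR's quasi-likelihood test (2 libraries against 2, adjusted p under 0.05, no size limit) called 25.2% of genes higher in the IdHPCs and 23.8% higher in the LMPPs, all 554 and 613 genes among them.

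**Figure D1:**
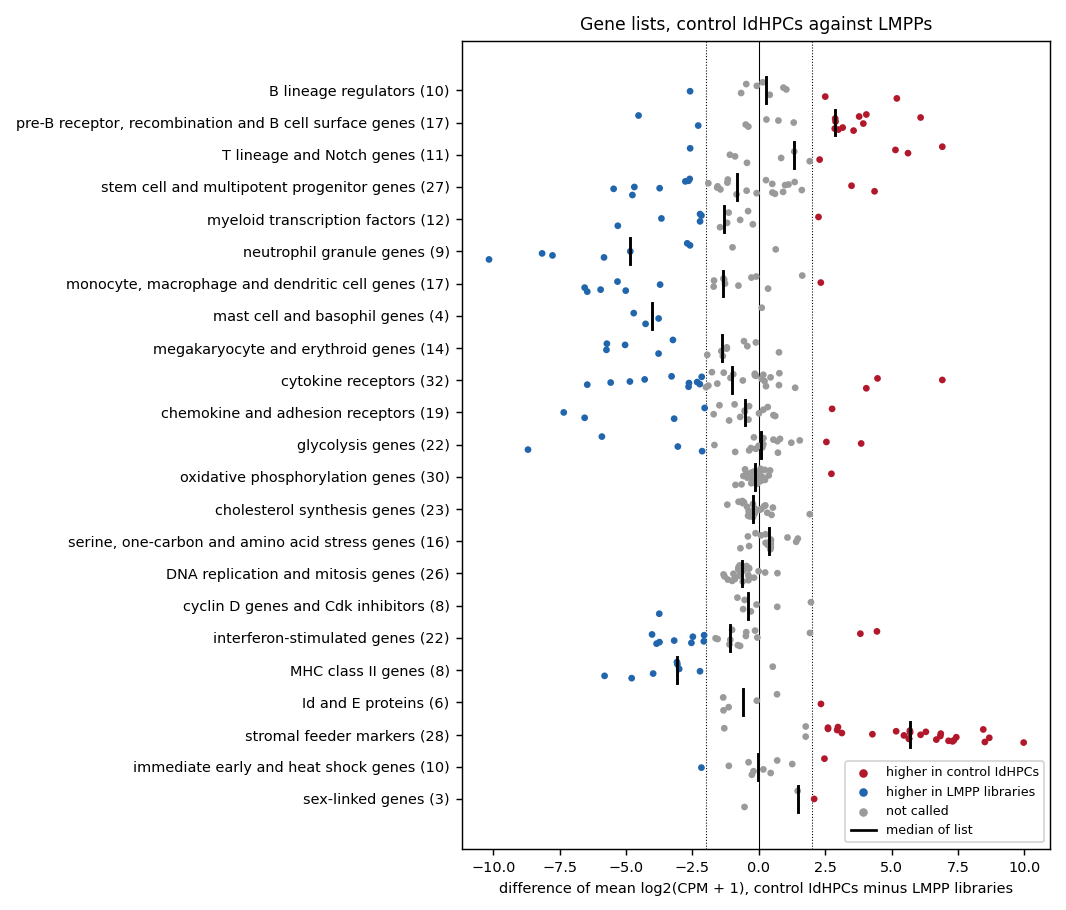
Difference of mean log2(CPM + 1), control IdHPCs minus LMPPs, for the tested members of 23 gene lists. Each point is a gene, red where called higher in the IdHPCs, blue where called higher in the LMPPs and grey otherwise, black bars are list medians and dotted lines mark differences of -2 and 2. The feeder markers (median 5.70) and the pre-B list (2.88) lie to the right, the granule (-4.84 over 9 of 18 listed genes), mast cell (-4.02 over 4 of 13) and MHC class II (-3.08) lists to the left. Over all listed genes the granule and mast cell medians were -0.60 and -0.44.

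The 12 genes with the greatest excess in the IdHPCs were Col1a1, Fn1, A130040M12Rik, Col1a2, Lox, Igj, 5830411N06Rik, Tnni1, Frmd5, Sparc, Col5a2 and Col3a1, with differences of 9.98 to 7.30. Of these, 7 are extracellular matrix genes or a matrix enzyme on the list of stromal feeder markers, described at the end. Igj, the joining chain of secreted antibodies, stood at 547, 504, 0.885 and 0.549 CPM. Tnni1, a slow muscle troponin, was at 320.4, 289.8, 0.295 and 0.275 CPM. Frmd5, which encodes a FERM domain protein, had 183 and 172 CPM in the IdHPCs and no read in the LMPPs (at least 802-fold higher, with the LMPPs set to 3 reads per library). A130040M12Rik and 5830411N06Rik likewise had no read in the LMPPs.

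The 12 genes with the greatest excess in the LMPPs included Mpo, Hk3, Ctsg, Scin, Prtn3, Ccr2, Pygl, Csf1r, Galnt6, Syce2 and Trf, with differences of -10.17 to -6.32. They include granule proteins, receptors and enzymes of sugar use. Scin, an actin-severing protein, was at 0.245, 0.63, 369 and 375 CPM. Trf, the iron carrier transferrin, was at 0.122, 0.344, 96.7 and 96.9 CPM, 415-fold higher in the LMPPs. Syce2, known from the meiotic synaptonemal complex, had 0.0919, 0.115, 93.6 and 88.5 CPM. Galnt6, a glycosyltransferase, had 1 read in each IdHPC library against 85.3 and 85.7 CPM in the LMPPs.

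Regulators of the B lineage were split. Of 10 tested regulators (13 listed), 2 were higher in the IdHPCs and 1 in the LMPPs, with a median difference of 0.28. This was 0.45 without IdHPC replicate 1, 0.18 without replicate 2, 0.15 over all 13 and 0.14 with the libraries labelled LMPP fl/fl. Ebf1, which specifies B cells, was at 31.2, 67.9, 0.221 and 0.343 CPM, and the other LMPP libraries were at 0.46 and 0.151 CPM. Pax5, which commits cells to the B lineage, was at 6.31, 3.70, 0 and 0.0686 CPM. Ebf1 and Pax5 thus had at most 5 reads in either LMPP library. Spib, an Ets factor of lymphoid and plasmacytoid dendritic cells, was at 2.30, 0.487, 12.2 and 12.5 CPM. Tcf3, the E protein at the head of the pathway, was at 262, 207, 238 and 253 CPM and overlapped, as did Foxo1. Ikzf1, a zinc finger factor needed for lymphoid fate, was at 429.7, 519.8, 241 and 256 CPM, apart but under the size limit. Lef1, Ikzf3 and Pou2af1 were below 1 CPM in all 4 libraries.

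Genes of recombination, the pre-B receptor and the B cell surface included many higher in the IdHPCs. Of 17 tested genes (20 listed), 10 were higher in the IdHPCs (Rag1, Il7r, Blk, Rag2, Igll1, Cd79a, Vpreb1, Cd22, Ly6d and Vpreb2) and 2 in the LMPPs (Dntt and Blnk), and the median difference was 2.88. Promoters of the 3 with the greatest differences are printed here, Rag1 and Il7r, higher in the IdHPCs, and Dntt, higher in the LMPPs, because the same list holds members of opposite direction. Each runs 5′ to 3′ from 250 bases before to 50 bases after the RefSeq start (table build GRCm38.p6). By exact match in NCBIM37 (mm9) they lie at chr2:101489640-101489939 on the minus strand (Rag1), chr19:41103515-41103814 on the plus strand (Dntt) and chr15:9459582-9459881 on the minus strand (Il7r). Capitals mark the letters AGATAA, the motif of GATA factors, or CCCNNGGG, that of EBF1, searched on either strand.
Rag1: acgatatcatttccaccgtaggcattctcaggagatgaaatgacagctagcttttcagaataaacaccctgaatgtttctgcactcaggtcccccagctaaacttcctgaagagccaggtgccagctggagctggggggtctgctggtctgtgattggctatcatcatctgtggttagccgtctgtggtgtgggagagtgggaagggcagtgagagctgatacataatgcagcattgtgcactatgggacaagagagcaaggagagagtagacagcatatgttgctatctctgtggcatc
Dntt: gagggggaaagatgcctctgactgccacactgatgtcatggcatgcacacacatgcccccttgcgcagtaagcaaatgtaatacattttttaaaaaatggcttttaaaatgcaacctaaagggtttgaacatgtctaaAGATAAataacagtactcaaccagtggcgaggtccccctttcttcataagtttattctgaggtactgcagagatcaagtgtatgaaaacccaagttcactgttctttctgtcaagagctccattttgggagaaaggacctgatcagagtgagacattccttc
Il7r: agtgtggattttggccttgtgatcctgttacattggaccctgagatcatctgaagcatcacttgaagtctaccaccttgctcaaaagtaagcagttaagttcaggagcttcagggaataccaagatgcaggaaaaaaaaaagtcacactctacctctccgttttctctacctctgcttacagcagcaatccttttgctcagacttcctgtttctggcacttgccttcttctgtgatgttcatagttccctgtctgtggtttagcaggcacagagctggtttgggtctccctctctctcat
Dntt held 1 AGATAA and the other two held neither motif in this window. Of all 32851 promoters of this length in the table, 11.18% held AGATAA and 13.67% held CCCNNGGG.

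Rag1, a subunit of the recombinase that joins antigen receptor genes, was at 68.8, 109, 0.221 and 0.343 CPM. Rag2, its partner, was at 29.1, 44.6, 2.06 and 1.37 CPM, 21.4-fold higher in the IdHPCs. Il7r, the receptor chain for IL-7, was at 60.0, 83.8, 3.47 and 3.23 CPM (21.5-fold). These genes had no overlap in any of the 8 libraries. Igll1 and Vpreb1, the surrogate light chain of the pre-B receptor, were at 3.74 and 30.9 CPM and at 5.63 and 28.4 CPM in the IdHPCs, against 0.0737 and 0 CPM and 0.737 and 0.755 CPM in the LMPPs. IdHPC replicate 2 was thus far above replicate 1 for them and for Vpreb2. The coding sequences of Vpreb1 and Vpreb2 each have 1 near-identical copy. Blk, a Src family kinase of B cells, was at 29.3, 87.0, 2.21 and 2.54 CPM, whereas the IdHPC libraries labelled Pcgf1 -/- had 0.702 and 4.09 CPM. Ly6d, a surface marker of B-primed lymphoid progenitors, was at 296, 254, 37.6 and 35.3 CPM. In the opposite direction, Dntt, the polymerase that adds N nucleotides at joints, was at 2.30, 15.5, 179.8 and 159.98 CPM, higher in the LMPPs. Blnk, an adaptor below the pre-B receptor, was at 0.459, 1.003, 7.96 and 6.73 CPM. Ms4a1 and Vpreb3, markers of committed B cells, were below 1 CPM in all 4 libraries.

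Several early T lineage genes were also higher in the IdHPCs, 4 of 11 tested (16 listed) against 1 higher in the LMPPs. The median difference was 1.33 over the 11 and 0.22 over all 16. Il2ra (CD25), the high-affinity chain for IL-2, was at 140.3, 264, 0.664 and 0.549 CPM, 333-fold higher in the IdHPCs. Thy1, a glycoprotein of T cells that some stromal cells also carry, was at 206, 178, 3.02 and 2.81 CPM (65.8-fold). In the IdHPC libraries labelled Pcgf1 -/- it was at 202 and 198 CPM, and the feeder's part in it was not tested. Cd2, an adhesion molecule of lymphocytes, was at 47.3, 37.0, 0.147 and 0.275 CPM. Dtx1, a Notch target, was at 3.77, 12.9, 0.516 and 0.824 CPM. Cd7, a marker of early lymphoid cells, was at 2.02, 1.66, 17.0 and 15.1 CPM. Notch1 itself was at 148, 175, 192 and 251 CPM. Tcf7 and Gata3, regulators of T cell commitment, were at 1.84, 4.18, 5.53 and 6.79 CPM and at 0.98, 0.86, 2.95 and 3.23 CPM. Notch1, Tcf7 and Gata3 thus stood above in the LMPPs without overlap, under the size limit. Without overlap, 7 of the 11 stood above in the IdHPCs and 4 in the LMPPs, against 31.7% and 45.5% of all genes. Genes of later T cells (Bcl11b, Cd3d, Cd3e, Cd3g and Ptcra) were below 1 CPM throughout.

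Genes of stem cells and multipotent progenitors differed in both directions. Of 27 tested (29 listed), 7 were higher in the LMPPs (Gata2, Hlf, Lmo2, Tal1, Cd34, Kit and Cd27) and 2 in the IdHPCs (Hoxa10 and Mycn), with a median of -0.84 (-0.46 over all 29 and -1.21 with a pseudocount of 0.1). Gata2, a zinc finger factor of stem and mast cells, was at 0.276, 0.115, 49.5 and 54.3 CPM. Hlf, a leucine zipper factor of stem cells, had no read in any IdHPC library and 25.3 and 27 CPM in the LMPPs (at least 285-fold). Lmo2, the bridge of the TAL1 and GATA complex, was at 15.5, 18.8, 461 and 469 CPM, and Tal1 was at 1.5, 2.21, 37.3 and 36.2 CPM. All 4 factors thus stood lower in the IdHPCs with no overlap. Hoxa10, a homeobox gene, was at 91.9, 93.2, 3.61 and 3.50 CPM, while its neighbours Hoxa5, Hoxa7 and Hoxa9 differed by -0.08, 0.51 and 0.91 on the log2 scale. Mycn, a Myc family factor, was at 235, 182, 17.0 and 17.9 CPM. Flt3, the receptor that defines LMPPs among LSK cells, overlapped at 425, 631, 419 and 440.4 CPM. Kit, the SCF receptor, was at 28.4, 50.3, 228 and 258 CPM, and Cd34 was at 108, 105, 736 and 721 CPM. Meis1 was at 54.0, 66.5, 37.4 and 40.6 CPM, under the size limit.

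Several regulators of the myeloid lineage were higher in the LMPPs. Of 12 tested myeloid transcription factors (13 listed), 5 were higher in the LMPPs (Cebpa, Irf8, Cebpe, Zeb2 and Egr1) and 1, Klf4, in the IdHPCs, with a median of -1.33. Cebpa, the driver of granulocyte-macrophage fate, was at 3.64, 2.23, 152 and 154 CPM, 52.0-fold higher in the LMPPs. Irf8, which directs monocyte and dendritic cell fate, was at 38.1, 47.1, 545 and 557 CPM. Spi1 (PU.1) was at 60.6, 44.9, 150.04 and 141 CPM, apart but under the size limit, and Runx1 overlapped at 66.0, 98.9, 97.1 and 119 CPM. Klf4 was at 17.3, 18.9, 2.43 and 3.71 CPM and at 31.8 and 23.5 CPM in the IdHPC libraries labelled Pcgf1 -/-. Stromal cells also express this gene, and its part from the feeder was not tested.

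Several granule genes of early neutrophil progenitors were near 0 in the IdHPCs and abundant in the LMPPs. Of 18 listed, 9 reached 1 CPM in a library, and of these 7 were higher in the LMPPs and none in the IdHPCs by this rule. The median was -4.84 over the 9 (-8.12 with a pseudocount of 0.1) and -0.60 over all 18. Mpo, the myeloperoxidase of primary granules, was at 1.35, 0.287, 1992 and 1995 CPM. Prtn3 was at 0.367, 0.315, 306 and 279.5 CPM. Ctsg, Elane and Ms4a3 had no read in the IdHPCs and 288 and 283 CPM, 61.3 and 51.1 CPM, and 31.3 and 24.5 CPM in the LMPPs. Hp and Mmp8 were the other members called. Prss57, a serine protease of the same granules, did not follow, at 22.1, 22.6, 14.9 and 13.2 CPM. Ltf, Camp, Ngp, Lcn2, S100a8 and Mmp9, genes of maturing neutrophils, were below 1 CPM in all 4 libraries. Not all such genes were: Mmp8 was at 0.0306, 0, 5.68 and 5.49 CPM. S100a9, the partner of S100a8, was at 0, 0, 1.25 and 0.755 CPM. In bulk libraries fewer cells that express a gene and less RNA per cell cannot be told apart.

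Of 17 tested genes of monocytes, macrophages and dendritic cells (19 listed), 6 were higher in the LMPPs (Ccr2, Csf1r, Itgax, Lyz2, Itgam and Cd68) and 1, Mrc1, in the IdHPCs, with a median of -1.33. Csf1r, the receptor for M-CSF, was at 0.276, 0.373, 114 and 118 CPM, 357-fold higher in the LMPPs. Itgax (CD11c) was at 0.337, 0.229, 78.1 and 79.5 CPM and Lyz2, lysozyme, at 1.44, 0.888, 93.0 and 77.7 CPM. In the 2 LMPP libraries without reads on rows 2 to 7 of Pcgf1, Csf1r was at 52.9 and 49.2 CPM and Lyz2 at 37.1 and 39.6 CPM, below the Pcgf1-intact LMPPs and above every IdHPC library. Mrc1, a mannose receptor, was at 6.58, 3.38, 0.221 and 0.0686 CPM.

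The mast cell, basophil, megakaryocyte and erythroid genes that were called were all higher in the LMPPs, and all of them but Nfe2 were under 2 CPM in the IdHPCs. Of 4 mast cell and basophil genes that reached 1 CPM, of 13 listed, 3 were higher in the LMPPs, Mcpt8, Cpa3 and Hdc. Cpa3, the carboxypeptidase of mast cell granules, had no IdHPC read and 20.3 and 16.4 CPM in the LMPPs (at least 200-fold). Mcpt8, a basophil protease, was at 0, 0.0287, 27.1 and 24.2 CPM. The defining mast cell genes Cma1, Tpsb2, Mcpt4 and Ms4a2 were below 1 CPM in all 4 libraries. Of 14 tested megakaryocyte and erythroid genes (21 listed), 5 were higher in the LMPPs (Car2, Itga2b, Pf4, Nfe2 and Vwf), with a median of -1.38 (-2.90 with a pseudocount of 0.1, -2.54 without each gene's 3′-most row and -0.56 with no filter on low genes).

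Promoters of Itga2b and Pf4, which with Car2 had the greatest differences of these lists, are printed in the same way, since these platelet genes had few or no reads in the IdHPCs. They lie in NCBIM37 (mm9) at chr11:102331148-102331447 on the minus strand (Itga2b) and chr5:91201211-91201510 on the plus strand (Pf4), and capitals mark the same motifs.
Itga2b: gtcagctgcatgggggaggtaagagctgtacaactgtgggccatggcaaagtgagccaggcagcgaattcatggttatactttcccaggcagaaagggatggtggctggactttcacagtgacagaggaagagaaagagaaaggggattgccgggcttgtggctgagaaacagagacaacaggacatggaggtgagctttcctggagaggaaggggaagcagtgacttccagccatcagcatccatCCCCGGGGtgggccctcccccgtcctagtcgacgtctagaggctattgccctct
Pf4: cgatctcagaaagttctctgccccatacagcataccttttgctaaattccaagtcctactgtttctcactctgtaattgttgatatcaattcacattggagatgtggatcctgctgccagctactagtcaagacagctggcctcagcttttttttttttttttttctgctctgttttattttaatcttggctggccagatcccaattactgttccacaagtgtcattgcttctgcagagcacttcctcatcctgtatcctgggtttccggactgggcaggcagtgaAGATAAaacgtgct
Itga2b held 1 CCCNNGGG and Pf4 held 1 AGATAA. Itga2b (CD41), an integrin chain of platelets, was at 1.13, 0.688, 103 and 95.7 CPM, 109-fold higher in the LMPPs. Pf4, the platelet factor 4 chemokine, had no IdHPC read and 35.9 and 28.3 CPM in the LMPPs (at least 349-fold). Car2, a carbonic anhydrase, had no IdHPC read and 52.8 and 52.2 CPM. Nfe2, a factor of platelet release, was at 5.24, 6.88, 96.7 and 93.5 CPM. Pf4 and Car2 were higher again in the other LMPP libraries, at 66.6 and 84.3 CPM and at 86.7 and 92.0 CPM. Klf1, Alas2 and Slc4a1, genes of committed erythroid cells, were below 1 CPM in all 4 libraries, and Gata1 was at 0, 0.287, 1.70 and 2.13 CPM.

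**Figure D2:**
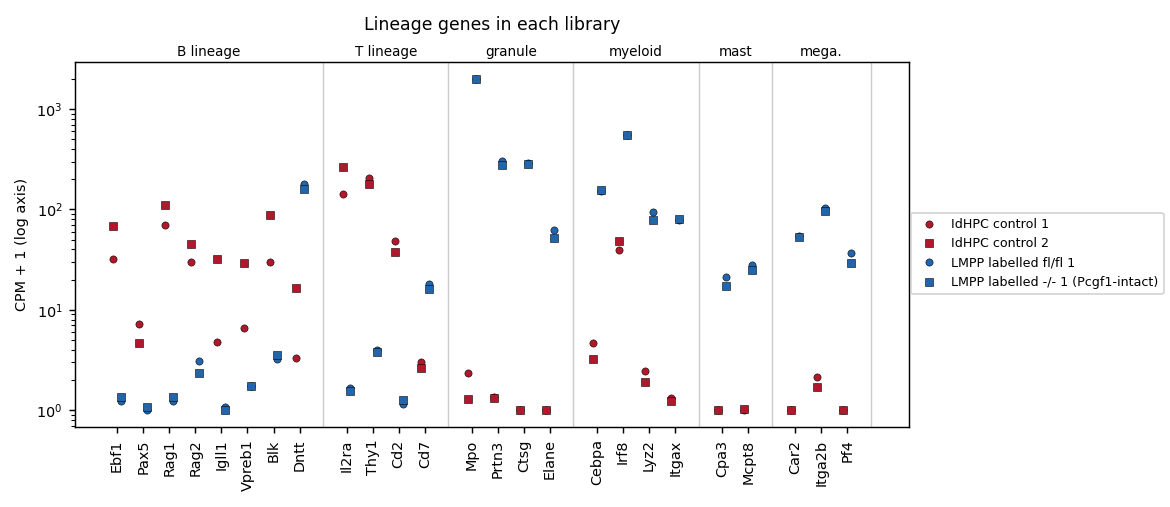
CPM + 1 on a log axis for lineage genes in the 2 control IdHPC libraries (red) and the 2 LMPP libraries with Pcgf1 reads (blue). The libraries of a side lie together for most genes. Among the B and T genes drawn, Dntt (2.30 to 180 CPM) and Cd7 run against the others. Blnk and Spib, also called higher in the LMPPs, are not drawn.

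Cytokine receptors differed in both directions. Of 32 tested (33 listed), 10 were higher in the LMPPs and 3 in the IdHPCs, with a median of -1.02 (-0.60 without genes that have a near-identical copy). The receptors higher in the IdHPCs were Il7r and Il2ra, given above, and Il18r1, a chain of the IL-18 receptor, at 209.8, 246, 9.88 and 8.72 CPM (24.5-fold). Those higher in the LMPPs bind myeloid or early-acting cytokines for the most part: Csf1r, Csf3r, Il6ra, Il1r1, Il27ra, Kit, Csf2rb2, Il3ra, Csf2ra and Il21r. Csf3r, the G-CSF receptor, was at 0.398, 0.774, 70.9 and 78.0 CPM, 127-fold higher in the LMPPs. Il6ra was at 1.47, 0.43, 49.5 and 57.7 CPM and Il1r1 at 0.98, 0.774, 33.8 and 38.2 CPM. Csf2ra, the GM-CSF receptor chain, was at 12.8, 12.4, 60.5 and 64.4 CPM, and Il3ra at 9.64, 6.79, 46.6 and 42.7 CPM. Csf3r and Csf2rb2 each have 1 near-identical copy.

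Of the receptors for the cytokines in the medium, Il7r was higher in the IdHPCs, Kit was higher in the LMPPs and Flt3 overlapped. Il2rg, the chain that IL-7 and IL-2 receptors share, was at 99.99, 95.4, 38.0 and 36.4 CPM. Crlf2, which pairs with the IL-7 receptor chain to bind TSLP, was at 30.6, 24.6, 113 and 111 CPM with a difference of -1.99, just outside the limit. Receptors for interferons differed little, Ifngr1 by -0.11 and Ifnar1 by 0.17, while Ifnar2 was at 80.1, 78.3, 161 and 149.8 CPM.

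Of 19 chemokine and adhesion receptors tested (20 listed), 4 were higher in the LMPPs, among them Ccr2, Ccr1 and Itgal, and 1, Itga6, in the IdHPCs. The shares of all genes were 4.80% and 4.34%, and the list median was -0.53. Ccr2, a receptor for monocyte chemokines, was at 2.88, 1.23, 278 and 276 CPM, and Ccr1 had no IdHPC read and 9.07 and 7.28 CPM. Itgal, a chain of LFA-1, was at 54.7, 64.5, 229.8 and 266 CPM. Itga6, a laminin receptor chain, was at 249.98, 446, 47 and 49.96 CPM, and the IdHPC libraries labelled Pcgf1 -/- stood lower at 160 and 66.2 CPM. Itga4 overlapped at 396, 343, 293 and 366 CPM, and Cxcr4, which holds progenitors in the marrow, was at 53.7, 51.4, 108 and 123 CPM.

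**Figure D3:**
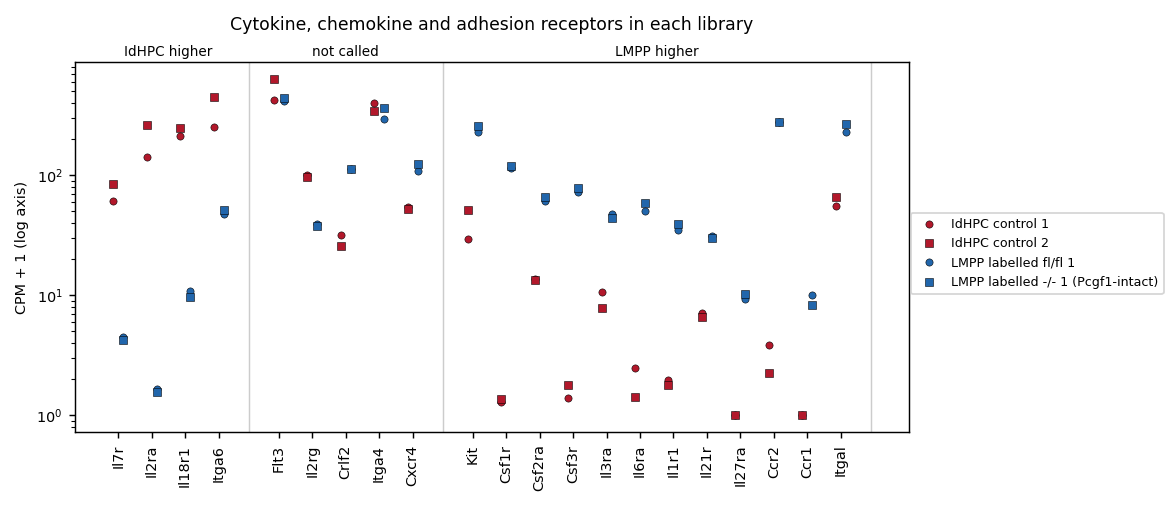
CPM + 1 on a log axis for cytokine, chemokine and adhesion receptors in the 2 control IdHPC libraries (red) and the 2 LMPP libraries (blue), grouped by call. Flt3 (419 to 631 CPM) and Itga4 overlap, while Il27ra and Ccr1 had no IdHPC read.

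Among glycolysis genes, single isoforms differed while the list median lay near 0. Of 22 glycolysis genes, 4 were higher in the LMPPs (Hk3, Slc16a3, Pfkp and Hk1) and 2 in the IdHPCs (Gapdh and Pgam1), with a median of 0.07 (-0.36 to 0.21 over the alternatives tried, and 0.21 and -0.081 without IdHPC replicate 1 or 2). Hk3, the hexokinase of myeloid cells, had no read in the control IdHPCs and 417 and 411 CPM in the LMPPs (at least 4505-fold). Slc16a3, a lactate exporter, was at 0.367, 0.172, 77.4 and 73.1 CPM. Pfkp, the platelet type phosphofructokinase, was at 11.2, 14.8, 115 and 113 CPM and Hk1 at 32.9, 53.4, 182 and 194 CPM. The other isoforms of these steps were closer, with Pfkl at 324, 422, 467 and 442 CPM, Hk2 at 94.8, 104, 128 and 129 CPM and Slc16a1 at 65.4, 52.1, 67.4 and 65.7 CPM. Pygl, which releases glucose from glycogen, had no IdHPC read and 97.3 and 86.9 CPM in the LMPPs. Aldoa (-0.01) and Gpi1 (-0.12) were nearly level.

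The 2 glycolysis genes called higher in the IdHPCs have near-identical copies. Gapdh was at 14.6-fold and Pgam1 at 5.92-fold higher CPM in the IdHPCs, and their coding sequences have 54 and 3 near-identical copies elsewhere in the genome (95% identity over at least 50% of the length). Along the 7 exon rows of Gapdh, the LMPPs had 0.0686 to 0.442 CPM on rows 1 to 4 and 25.6 to 38.2 CPM on rows 5 to 7, whereas the IdHPCs had 146 to 266 CPM on every row. Over all tested genes, the median difference was -0.15 for 10995 genes with no such copy, 0.11 for 868 genes with 1 or 2 copies and 0.43 for 223 genes with 3 or more. Of the last, 11 (4.93%) were higher in the IdHPCs and 2 (0.897%) in the LMPPs. Without genes that have copies, the median of the glycolysis list was -0.33. In that setting 516 and 584 genes were called over all, and the 681 genes without a matched coding sequence, unchecked for copies, were kept. The part that the placing of reads among copies has in these values was not tested. Ldha, Pgk1, Eno1 and Pkm2, with differences of 0.80, 1.22, 0.70 and 0.55, also have 1 to 3 copies.

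**Figure D4:**
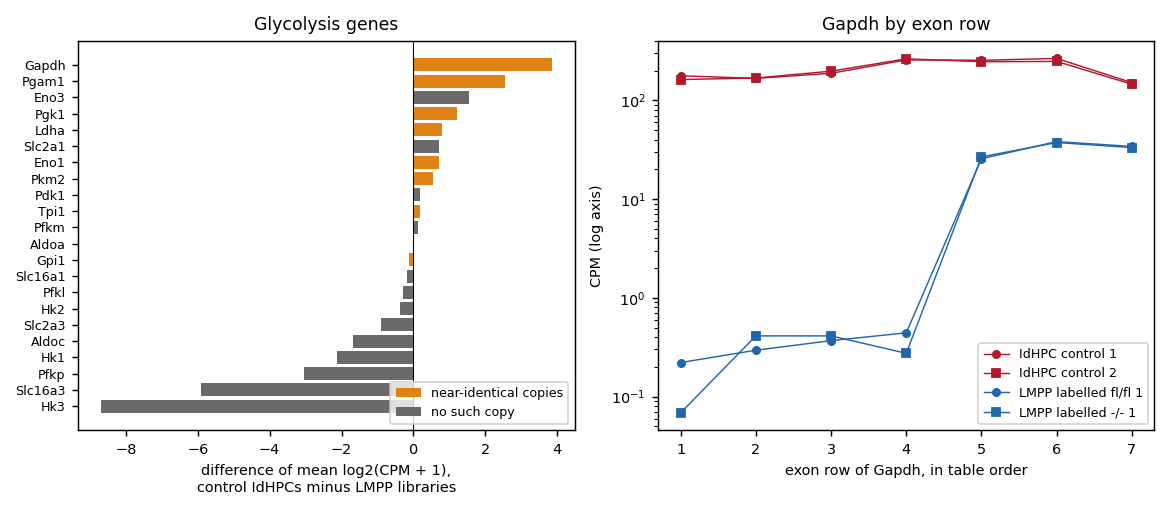
Left, difference of mean log2(CPM + 1), control IdHPCs minus LMPPs, for 22 glycolysis genes, with genes that have near-identical copies in orange. Right, CPM on a log axis in each of the 7 exon rows of Gapdh, where the LMPP libraries lie between 0.0686 and 0.442 CPM on rows 1 to 4 and the IdHPC libraries between 146 and 266 CPM on all rows.

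Of 30 respiratory chain genes 1 was called, against 9.14% of all genes. Their median was -0.14 (-0.23 to -0.014 as each library was left out and 0.057 with all 8 libraries), near the -0.12 of all genes. Without overlap, 7 stood above in the IdHPCs and 13 in the LMPPs, against 31.7% and 45.5% of all genes. The gene called was Cycs, the soluble electron carrier cytochrome c, at 290.5, 210.3, 37.1 and 35.5 CPM, and its coding sequence has 7 near-identical copies. Atp5b, a subunit of the ATP synthase, was at 1147, 1027, 835 and 784 CPM, and Uqcrc1, of complex III, at 138, 110.03, 193 and 178 CPM. None of 23 tested cholesterol synthesis genes (24 listed) was called, against 4.34% and 4.80% of all genes, with a median of -0.21, which was -0.14 without IdHPC replicate 2 and -0.078 under TMM scaling. Idi1, an isomerase with 2 copies, came closest at 101, 80.5, 22.5 and 23.7 CPM. Of 16 genes of serine, one-carbon and amino acid stress pathways none was called, and 11 stood above without overlap in the IdHPCs, as did 31.7% of all genes, with a median of 0.39 (0.18 without IdHPC replicate 1 and 0.11 with the libraries labelled LMPP fl/fl). Asns, asparagine synthetase, was at 57.7, 50.6, 18.2 and 21.4 CPM, and Trib3, a target of the stress factor ATF4, at 10.3, 12.7, 3.17 and 3.84 CPM. The remaining LMPP libraries had 46.5 and 55.3 CPM of Trib3, above every IdHPC library, and with all 8 libraries the list median was -0.08.

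Genes of DNA replication and mitosis were modestly lower in the IdHPCs. None of 26 reached the size limit, but 21 stood above without overlap in the LMPPs and 1, Ccne1, in the IdHPCs, with a median of -0.63 against -0.12 for all genes. The share of all genes above in the LMPPs was 45.5%. Mcm5, of the replicative helicase, was at 215, 144, 392 and 402 CPM, Cdt1, which loads it, at 51.7, 46.0, 118 and 124 CPM, and Mki67 at 216, 257, 387 and 421 CPM. Pcna and Ccnb1 overlapped. Among cyclin D genes and Cdk inhibitors 1 of 8 tested (10 listed) was called, against 9.14% of all genes. Their median was -0.42 (-0.25 without IdHPC replicate 1 and -0.19 without genes that have a near-identical copy). The gene called was Ccnd1, at 14.2, 10.5, 176 and 178 CPM (14.3-fold higher in the LMPPs), whereas Ccnd2 was at 350.2, 472, 493 and 509 CPM. Cdkn2a, which encodes p16 and p19Arf, had 2.85 and 2.95 CPM in the IdHPCs and no read in the LMPPs, a difference of 1.96.

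MHC class II genes were higher in the LMPPs for 7 of 8 members, with a median of -3.08. H2-Ab1, a beta chain, was at 0.582, 0.43, 85.3 and 81.6 CPM, 165-fold higher, and H2-Aa at 0.582, 0.143, 38.8 and 33.8 CPM. Ciita, the activator of these genes, was at 0.398, 0.287, 8.26 and 13 CPM, and Cd74, the invariant chain, at 24.8, 12.5, 164 and 147 CPM. H2-Oa was the exception at 18.1, 20.1, 13.4 and 12.5 CPM. H2-Eb1, H2-DMb1 (1 near-identical copy) and H2-DMa made up the rest of those called.

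Interferon-stimulated genes divided into a larger set higher in the LMPPs and a pair of guanylate-binding proteins higher in the control IdHPCs. Of 22 tested (25 listed), 8 were higher in the LMPPs (Gbp3, Mx1, Oas1a, Oasl2, Mx2, Usp18, Oasl1 and Gbp2) and 2, Gbp8 and Gbp4, in the IdHPCs, with a median of -1.09 (-1.71 with a pseudocount of 0.1). Mx1, an antiviral GTPase, had no IdHPC read and 13.8 and 13.1 CPM in the LMPPs, and Oas1a, an RNA sensor with 1 copy, was at 0.214, 0.258, 16.5 and 14.6 CPM. Both were lower in the other LMPP libraries, Mx1 at 0.863 and 1.44 CPM and Oas1a at 2.42 and 4.32 CPM, and the list's median with the libraries labelled LMPP Pcgf1 fl/fl was -0.67. Gbp4 was at 19.5, 31.0, 0.664 and 0.961 CPM and Gbp8, with 1 copy, at 27.7, 54.3, 0.442 and 1.30 CPM. In the IdHPC libraries labelled Pcgf1 -/- Gbp4 and Gbp8 were under 1 CPM as well, so their excess held for the control IdHPCs and not for all IdHPC libraries.

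Among Id and E proteins only Id3 was called, 1 of 6 against 9.14% of all genes. It was at 78.9, 65.6, 13.2 and 13.6 CPM (5.39-fold higher in the IdHPCs). The IdHPCs carry the human Id3 transgene, and whether its reads were placed on mouse Id3 was not tested. Id1 was at 1.47, 1.38, 5.97 and 4.32 CPM and Id2 at 6.52, 10.7, 19.9 and 19.4 CPM. Tcf4, an E protein of plasmacytoid dendritic cells and B cells, was at 69.7, 87.0, 203 and 195 CPM, and Tcf12 was at 102, 139, 69.9 and 77.5 CPM.

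Stromal feeder markers had the highest median of the 23 lists, 5.70, and 25 of 28 tested (30 listed) were higher in the IdHPCs. Both cell types were grown on TSt-4 cells, but their summed CPM was 5657 and 4804 in the control IdHPCs and 75.3 and 81.9 in the LMPPs. Col1a1, a chain of type I collagen, was at 1131, 1100.3, 0.147 and 0.0686 CPM, which is 1 or 2 reads per LMPP library. Fn1, fibronectin, was at 740.04, 688, 0.442 and 1.10 CPM. Sparc was at 264, 229.7, 0.369 and 0.48 CPM and Lox, which crosslinks collagen, at 380.3, 346, 0.0737 and 0 CPM. Col3a1, Col5a2, Col6a1, Bgn and Cyr61 had no LMPP read. Thbs1, which blood cells also express, was at 714, 476, 27.4 and 30.9 CPM. Pdgfrb ran the other way at 15.4, 12.3, 35.1 and 35.8 CPM, and Lum and Dcn were below 1 CPM in all 4 libraries.

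The feeder sum was higher again in the IdHPC libraries labelled Pcgf1 -/-, at 10334 and 7580 CPM, and it was 121 and 103 CPM in the remaining LMPP libraries. Eif2s3y, a Y-linked gene, was at 3.37 and 3.12 CPM in the control IdHPCs, 8.57 and 6.49 CPM in the libraries labelled -/- and 0 in all LMPP libraries. Jarid1d, also Y-linked, was at 2.20, 1.38, 0 and 0 CPM. Xist, the transcript of the inactive X, was at 1046, 1445, 1587 and 2014 CPM, so that Y-linked reads stood beside Xist reads in the control IdHPC libraries. The summed CPM of the sex-linked list, Xist included, was 1053 and 1451 in the control IdHPCs. It was lower, at 600 and 556, in the IdHPC libraries labelled -/-. Of the lymphoid genes above, Ebf1 (34.3 and 48.8 CPM) and Il2ra (159 and 198 CPM) lay within the range of the controls in the IdHPC libraries labelled -/-. Igll1 (9.94 and 90.5 CPM) and Vpreb1 (12.9 and 73.6 CPM) each had 1 library above that range, Rag1 (129.9 and 54.5 CPM) had 1 above and 1 below it, and Pax5 (2.42 and 0.423 CPM) and Blk (0.702 and 4.09 CPM) lay below it. The part of feeder RNA in the genes called higher in the IdHPCs, those of the feeder list included, was not tested. Of 10 tested immediate early and heat shock genes (12 listed), 1 was higher on each side, against 4.34% and 4.80% of all genes. These were Hspa1b (4.99, 4.90, 0.147 and 0 CPM, 1 copy) in the IdHPCs and Egr1 (1.75, 2.95, 12.2 and 15.5 CPM) in the LMPPs. The list median was -0.01 (0.37 without IdHPC replicate 1 and -0.51 without replicate 2). Fos was at 0.857 and 5.13 CPM in the IdHPCs, so that the replicates differed more from each other than from the LMPPs at 2.88 and 3.23 CPM.

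**Figure D5:**
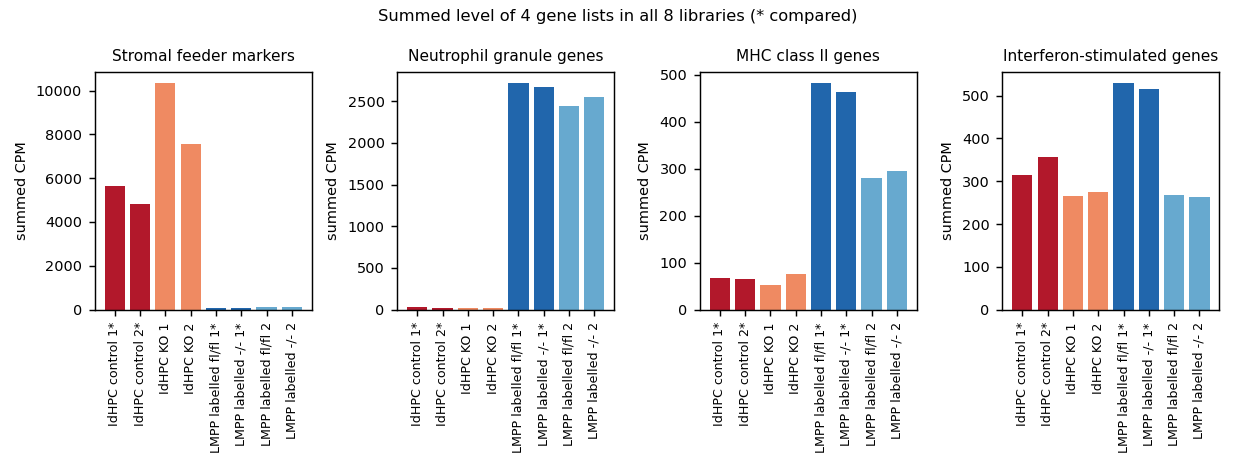
Summed CPM of the stromal feeder, neutrophil granule, MHC class II and interferon-stimulated lists in all 8 libraries, each with its own axis from 0, with the 4 compared libraries marked by asterisks. Feeder sums are 4804 to 10334 CPM in the IdHPC libraries and 75.3 to 121 CPM in the LMPP libraries, and granule sums are 19.0 to 25.7 CPM against 2442 to 2715 CPM.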

How the data were processed

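RNA-seq was analysed for 2 control IdHPC libraries and 2 LMPP libraries with reads on rows 2 to 7 of Pcgf1, and the other 4 libraries of the series served as side values. Groups come from the sample labels. The authors isolated poly(A) RNA, prepared NEBNext Ultra libraries, and deposited CPM values per exon row in 2 tables, one per cell type. The methods name HISAT2, Rsubread and edgeR with mm9, while the submitters' processing notes name TopHat2 2.0.13 and edgeR, and which aligner made which table is not given in the sources used here. The methods also name a filter at 1 CPM that the tables do not show, 284716 rows each. How reads with several equal matches were placed, whether counting used strand, and how a read over 2 rows was counted are not given in the sources used here.

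From the deposited CPM, rows equal to the row before were dropped (26.9% and 26.8% of rows with reads were such repeats) and the rest summed per symbol (23284 symbols). All values (100%) divided by the CPM of 1 read came within 0.1% of a whole number (zeros included), which gave back read counts. These deposited totals include repeated rows. Intervals and floors of 3 reads cover counting error only. Levels are CPM per gene, not per length, and are compared between libraries, not between genes. Genes that reached 1 CPM in any of the 4 libraries were kept, and differences are of mean log2(CPM + 1), a pseudocount of 1, which understates folds of low genes. The 2 tables were normalized separately, so no test was made on CPM across them. As an alternative, edgeR 4.0.16 (R 4.3.3, quasi-likelihood test, TMM, Benjamini-Hochberg) was run on the recovered counts, after a run on simulated data. The simulation gave every gene the same spread and set no difference between the tables. It therefore does not show how the test behaves on these libraries. Linear folds are ratios of mean CPM, given where the lower side had at least 10 reads. Near-identical copies were found by aligning coding sequences to NCBIM37 with minimap2 2.31.

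The members, the 23 gene lists (430 entries) and the rules were chosen with earlier results of these data known. Named genes are the 12 with the greatest difference on each side, list members that were called, and up to 4 further members per list of known role. The processing alternatives were a pseudocount of 0.1, other filters, other scalings, repeated rows kept, the row at the 3′ end left out, other LMPP libraries, a size limit of 1, edgeR, and each library left out. A few genes of the lists are counted but not reported here by name.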

Additional observations from a re-analysis of the deposited data

How the results depend on the processing

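The counts of called genes stayed within 1.5 times 554 and 613 under 8 of the planned processing settings and under each left-out library, which gave 554 to 573 and 602 to 625 genes. They were 999 and 1062 with a pseudocount of 0.1, which enlarges differences of low genes, 1395 and 1643 with a size limit of 1, and 3217 and 3040 by edgeR's quasi-likelihood test, which has no size limit. TMM and median-ratio scaling each gave 599 and 565, the libraries labelled LMPP Pcgf1 fl/fl gave 548 and 617, and leaving out the row at the 3′ end of each gene gave 426 and 492. No paired analysis was possible because both LMPP libraries carry replicate number 1, so that the groups share only 1 number. Of the list medians recomputed, 234 moved by no more than the spread over pairs of libraries, 87 moved by more and 1 changed sign beyond it, that of the serine list, from 0.39 to -0.079 with all 8 libraries, and the cause was not tested. Medians of the glycolysis, respiratory chain and immediate early lists, which lie near 0, also took the other sign under 4, 1 and 6 settings.

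With a pseudocount of 0.1 the medians were -1.21 (stem cell), -8.12 (granule), -1.96 (monocyte), -7.03 (mast cell), -2.90 (megakaryocyte), -1.71 (interferon), -4.05 (MHC class II), 8.37 (feeder) and 4.20 (sex-linked). With 1 CPM required in at least 2 libraries the median was -5.34 (granule). With no filter, which adds members at or near 0, the medians were 0.22 (T lineage), -0.46 (stem cell), -1.19 (myeloid factor), -0.60 (granule), -0.44 (mast cell), -0.56 (megakaryocyte), -0.076 (Id and E) and 0.85 (sex-linked). Under TMM scaling the medians were -1.20 (myeloid factor), -1.29 (monocyte), -0.40 (chemokine receptor), -0.078 (cholesterol), 0.57 (serine), -0.49 (replication), -0.99 (interferon) and -0.47 (Id and E). Under median-ratio scaling the medians were -1.20 (myeloid factor), -1.29 (monocyte), -0.40 (chemokine receptor), -0.078 (cholesterol), 0.57 (serine), -0.49 (replication), -0.99 (interferon) and -0.48 (Id and E). With repeated rows kept the medians were -3.77 (mast cell) and -3.52 (MHC class II). Without the row at the 3′ end of each gene the medians were -5.08 (granule), -1.63 (monocyte), -3.66 (mast cell) and -2.54 (megakaryocyte). With the libraries labelled LMPP Pcgf1 fl/fl the medians were 1.56 (T lineage), -1.19 (myeloid factor), -4.21 (granule), -1.003 (monocyte), -3.73 (mast cell), -0.40 (chemokine receptor), -0.21 (glycolysis), 0.11 (serine), -0.56 (replication), -0.67 (interferon), -2.56 (MHC class II) and -0.38 (Id and E). With all 4 libraries of each cell type the medians were 1.72 (T lineage), -1.09 (myeloid factor), -4.18 (granule), -0.90 (monocyte), -3.19 (mast cell), -1.64 (megakaryocyte), -0.63 (chemokine receptor), -0.36 (glycolysis), 0.057 (respiratory chain), -0.079 (serine), -0.84 (interferon), -2.81 (MHC class II), -0.36 (Id and E) and 6.19 (feeder). Without genes that have a near-identical copy, an alternative chosen after seeing the data, the medians were -1.51 (monocyte), -1.68 (megakaryocyte), -0.60 (cytokine receptor), -0.33 (glycolysis), -0.19 (cyclin D) and -1.31 (interferon). Leaving out each library in turn gave 0.18 to 0.45 (B regulators), -1.48 to -1.29 (myeloid factor), -5.19 to -4.84 (granule), -1.41 to -1.33 (monocyte), -1.11 to -0.76 (cytokine receptor), 0.18 to 0.46 (serine), -0.68 to -0.62 (replication), -0.53 to -0.25 (cyclin D), -1.23 to -1.10 (interferon), -3.34 to -3.07 (MHC class II), -0.62 to -0.53 (Id and E), 5.54 to 6.04 (feeder) and -0.51 to 0.37 (immediate early). Leaving out 1 library moved a median by over 1.5 times for 7 lists. Without control IdHPC replicate 1 the medians were 0.45 (B regulators), 0.21 (glycolysis), -0.22 (respiratory chain), 0.18 (serine), -0.25 (cyclin D) and 0.37 (immediate early). Without replicate 2 they were 0.18 (B regulators), -0.081 (glycolysis), -0.014 (respiratory chain), -0.14 (cholesterol) and -0.51 (immediate early). Without LMPP fl/fl replicate 1 they were -0.064 (respiratory chain) and -0.030 (immediate early), and without the library labelled LMPP Pcgf1 -/- replicate 1 they were -0.23 (respiratory chain) and 0.00061 (immediate early). The LMPP libraries hold fewer reads, so that genes under 0.221 CPM there rest on 3 reads or fewer, and a fold against a side without reads is a lower bound.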
